A study of Caenorhabditis elegans with 6 samples.

Results

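The genes described here are the hedgehog-related and patched-related families of Caenorhabditis elegans, taken as every deposited gene name that consists of wrt, grd, grl, ptr or ptc, a hyphen and a number. Of 46739 listed features, 85 met this rule: 10 wrt (warthog), 17 grd (groundhog), 32 grl (ground-like), 3 ptc (patched) and 23 ptr (patched-related) genes. Whole L4 larvae of the wild-type strain N2 were grown at 20 °C from the start of development on HT115 bacteria carrying either a clone against rab-11.1, which encodes a small GTPase of recycling endosomes, or the empty vector (EV), which targets no worm gene. Both groups thus ate RNAi bacteria on plates with IPTG and carbenicillin, and polyadenylated RNA was sequenced from 3 libraries of rab-11.1 RNAi worms and 3 of EV RNAi worms. Within each group the labels number biological replicates 1 to 3 without saying whether these came from separate cultures, so the p-values measure the spread between these samples.

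The targeted gene went against 1 label. In the rab-11.1 RNAi libraries rab-11.1 stood at 151 and 138 RPKM (reads per kilobase of transcript, divided by library depth) in replicates 1 and 2, but at 633 RPKM in the replicate 3 library labelled rab-11.1 RNAi, against 411, 398 and 409 RPKM in the EV RNAi libraries. That library held 156% of the EV RNAi mean. Every comparison below includes it unless stated, and values without it are given for the genes past the threshold with or without the replicate block. Depths recovered from the RPKM values were 22946375 to 25107994 reads after rab-11.1 RNAi and 27190567 to 30183162 after EV RNAi, so that 3 reads on a transcript of 1 kb, taken as the floor, stood for 0.119 to 0.131 RPKM in rab-11.1 RNAi and 0.0994 to 0.11 RPKM in EV RNAi. Intervals cover counting error and the spread between libraries, and the floor is a number of reads alone. Whether that spread holds differences between cultures is not known from the labels.

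Nematodes have no close counterpart of the Hedgehog ligand or of Smoothened, but they have large families of secreted hedgehog-related proteins. Many WRT and GRD proteins join a signature domain to the self-cleaving Hog domain, whereas GRL proteins carry only a ground-like domain. PTC and PTR proteins are membrane proteins with a sterol-sensing domain, related to the fly receptor Patched. Most of these genes are active in the epidermis, the seam cells, glia and other cells that line the outside of the worm, many of them in step with the moulting cycle, and several are needed for moulting and for building the cuticle. RAB-11 proteins act in the recycling of membrane proteins to the cell surface.

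Many of the 85 genes were among the abundant transcripts of these larvae, and others were close to silent. The filter of 1 RPKM or more in at least 3 libraries was passed by 61 genes (9 wrt, 12 grd, 16 grl, 2 ptc and 22 ptr), and 24 stayed below it. Over the 61 genes the median level was 23.8 RPKM, against 11.7 RPKM over all 13833 features tested, and 9 of the 61 (14.8%) averaged above 100 RPKM, against 8.23% of all tested features. These 9 were grl-16 at 519.6 RPKM, grd-5 at 318, grl-7 at 236, grl-5 at 200.2, wrt-10 at 191, grl-15 at 158, grd-14 at 118.9, grl-4 at 117 and wrt-4 at 103 RPKM, as means of 6 libraries. All of these belong to the secreted families. The highest receptor-like genes were ptr-4 at 90.0 RPKM and ptc-3 at 88.0 RPKM.

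**Figure D1:**
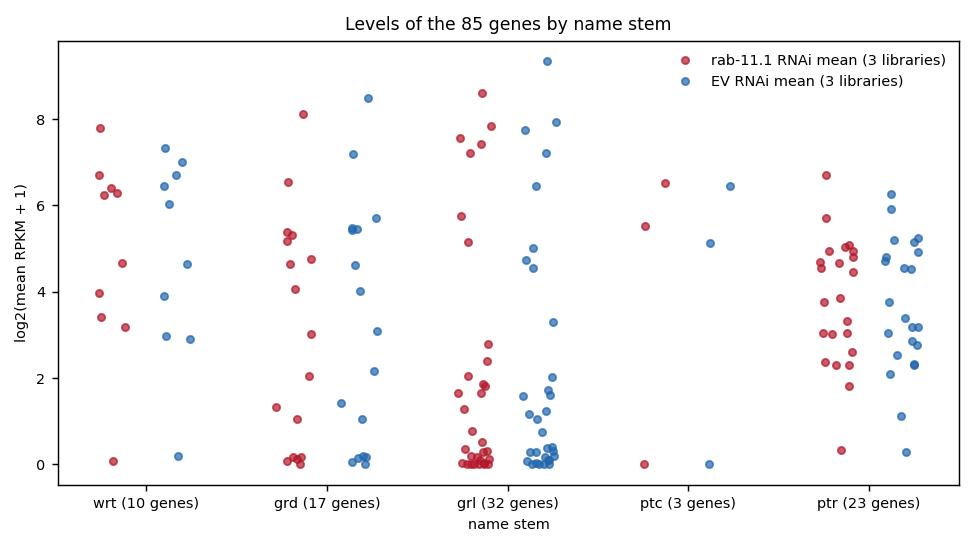
Mean level of each of the 85 genes by name stem, as log2 of mean RPKM plus 1, with rab-11.1 RNAi (red, mean of 3 libraries) left of EV RNAi (blue, mean of 3 libraries). The grl stem spans the widest range, with 16 of its 32 genes below the filter, and the points of both groups span alike ranges in every stem.

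Of the 24 genes below the filter, grl-19, grl-24, grl-29 and grl-32 were listed at 0 in all 6 libraries. The gene grl-30 was the highest of the 24 and the one to reach 1 RPKM, with 2, 2 and 0 reads after rab-11.1 RNAi (0.186, 0.183 and 0 RPKM), against 15, 2 and 11 reads in the EV RNAi libraries (1.06, 0.142 and 0.864 RPKM). All 3 rab-11.1 RNAi libraries and EV RNAi replicate 2 were thus at or under the floor of 3 reads, so no fold is given. The rest of the 24 had at most 20 reads in any library, ptr-9 holding the most. These low genes had no test.

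Few of the tested genes differed between the groups. After rab-11.1 RNAi 1 of 61 was higher (ptr-1) and 1 was lower (grl-27) at an adjusted p under 0.05 by limma, which is 3.28% of the 61. Of all tested features 9% passed, 7.93% higher and 1.07% lower. With the 2 scalings that centre all features, the calls over all features became 4% higher and 2.05% lower (median-of-ratios) or 3.79% and 1.8% (quantile normalization), and 6.05% or 5.59% in all. The tested features as a whole had a median log2 fold change of 0.09 as deposited, and of -0.02 and -0.04 under these scalings. The median over the 61 genes was 0.03 as deposited, -0.09 and -0.11 under those scalings, so it has no firm sign. The single log2 fold changes ran from -2.33 (grl-27) to 1.17 (ptr-8), and 50 of the 61 (82%) lay within 0.5 of 0, against 85% of all tested features.

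Without the replicate 3 library labelled rab-11.1 RNAi, limma called 0 of the 61 genes in either direction, while 5.34% of all tested features passed (4.71% higher and 0.629% lower). In that fit 8 of the 61 genes were higher and 8 lower at an unadjusted p under 0.05, against 20% higher and 5.47% lower over all tested features, and the lowest adjusted p was 0.0505 (ptr-4). The labels number the replicates of both groups 1 to 3, and same-numbered libraries deviated together (correlations of 0.40, 0.62 and 0.35). Crossed pairs of replicates 1 and 3 did so too (0.46 and 0.18), so these values do not settle how replicates 1 and 3 pair. With the replicate number as a block, 9 of the 61 genes passed as higher and 6 as lower (24.6%), against 21% of all tested features (16.5% higher and 4.47% lower). The share of the families was thus below that of all features without the block and close to it with the block. With the block but no replicate 3 library, 1 gene was higher (ptr-8) and 3 were lower (wrt-4, grl-16 and grl-27), against 7.03% of all tested features (5.8% higher and 1.22% lower). With the block but no replicate 2 library, 7 were higher and 5 lower, against 19.4% of all tested features (15% higher and 4.4% lower).

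**Figure D2:**
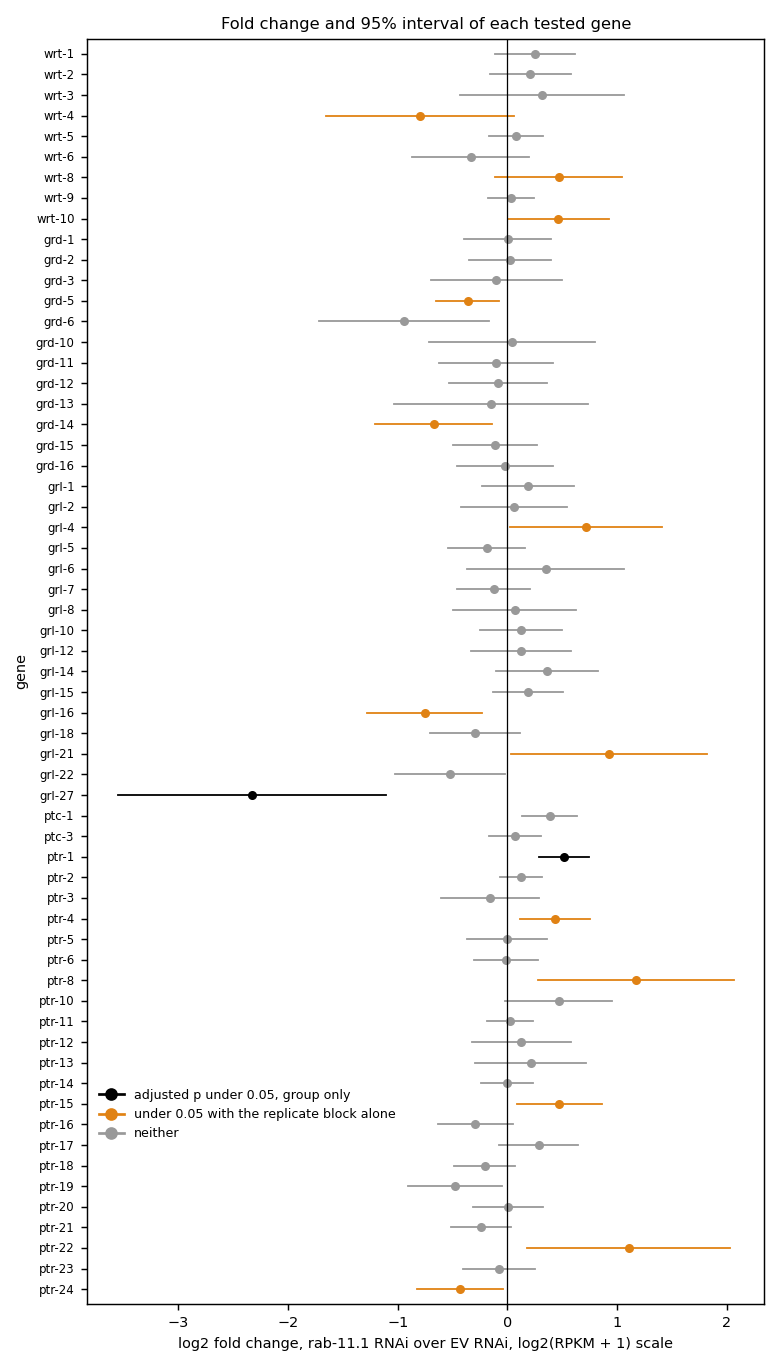
Log2 fold change of each of the 61 tested genes, rab-11.1 RNAi over EV RNAi, on the log2(RPKM + 1) scale, with its 95% interval from the fit without the block (lines). Black marks the 2 genes past an adjusted p of 0.05, orange the 13 that passed only with the replicate block, and grey the rest, most of which lie close to 0.

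Libraries of the 2 groups overlapped for most genes. In 7 of the 61 all 3 rab-11.1 RNAi libraries lay above all EV RNAi libraries (ptc-1, ptr-1, ptr-4, ptr-8, ptr-15, ptr-17 and ptr-22), and in 5 they lay below (grd-5, grl-16, grl-22, grl-27 and ptr-19). Together these are 19.7% of the 61, against 33.9% of all tested features (27.4% above and 6.53% below). By pairs of the same replicate number, 20 genes were higher in all 3 pairs and 16 lower (59%), against 59.7% of all tested features (40.6% higher and 19.2% lower). Of the 24 tested ptc and ptr genes 7 lay above without overlap (29.2%), close to the share of all tested features, and of the 37 tested wrt, grd and grl genes 0 lay above and 4 below. Summed over the 85 genes, the rab-11.1 RNAi libraries held 2851 to 3183 RPKM and the EV RNAi libraries 3231 to 3524 RPKM. Without grl-16, the most abundant of them, the sums overlapped, at 2565 to 2771 RPKM in rab-11.1 RNAi and 2603 to 2738 RPKM in EV RNAi. In whole-worm RNA, fewer cells of a type and less RNA per cell cannot be told apart.

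**Figure D3:**
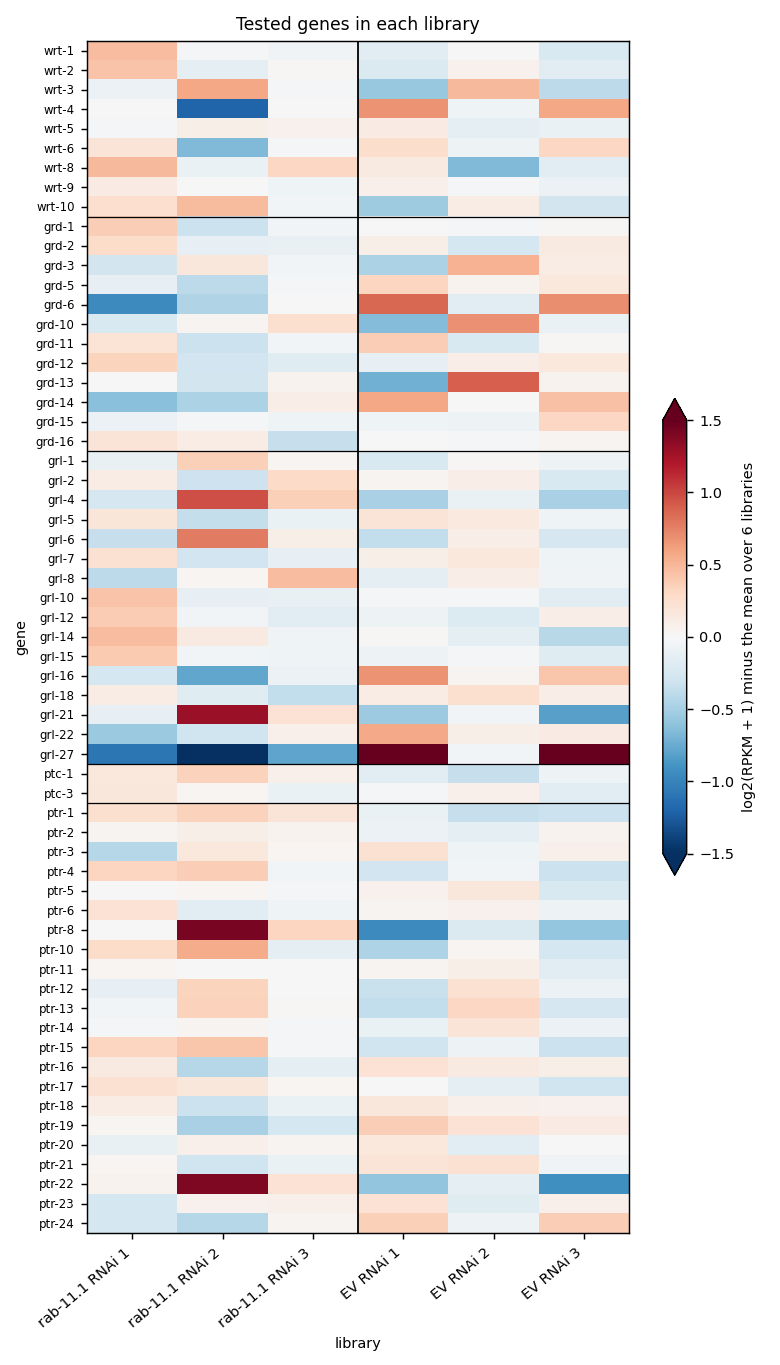
Each of the 61 tested genes (rows, grouped by name stem) in each library (columns, rab-11.1 RNAi left of the line and EV RNAi right of it), as log2(RPKM + 1) minus the gene's mean over 6 libraries. The row of grl-27 is low in all rab-11.1 RNAi libraries, while grl-4, grl-21, ptr-8 and ptr-22 are highest in rab-11.1 RNAi replicate 2.

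Among the warthog genes, which encode secreted proteins with a wart domain, 0 of 9 tested passed by limma (1 higher and 0 lower at an unadjusted p under 0.05, against 21.6% and 4.93% of all tested features). With the block 3 of the 9 passed (33.3%), against 21% of all tested features. The gene wrt-4 had 94.9, 40.5 and 95.3 RPKM in the rab-11.1 RNAi libraries, against 152, 90.7 and 142.4 RPKM in the EV RNAi libraries. The groups overlapped because EV RNAi replicate 2 was lower than 2 of the rab-11.1 RNAi libraries, but each rab-11.1 RNAi library was lower than the EV RNAi library of its number. Its log2 fold change was -0.80 (SE 0.36, adjusted p = 0.215), with an adjusted p of 0.012 with the block. The opposite direction was seen for wrt-10, at 222, 259 and 181 RPKM in the libraries from rab-11.1 RNAi, against 128, 201 and 153 RPKM in EV RNAi (log2 fold change 0.46, SE 0.19, adjusted p = 0.186, and 0.0464 with the block). The much lower wrt-8 averaged 9.67 ± 2.16 RPKM in rab-11.1 RNAi and 6.80 ± 2.09 RPKM in EV RNAi (SD, n = 3 each; adjusted p = 0.276 by limma, and 0.0265 with the block). Without the replicate 3 library labelled rab-11.1 RNAi the adjusted p was 0.189 for wrt-4, 0.139 for wrt-10 and 0.427 for wrt-8. With the block but no replicate 3 library the call of wrt-4 held (adjusted p = 0.0416), and those of wrt-10 (0.0959) and wrt-8 (0.124) ended. The other tested warthog genes did not pass in either fit. Among them wrt-2, whose promoter is a common seam cell marker, averaged 75.3 ± 15.8 RPKM in rab-11.1 RNAi and 64.5 ± 6.91 RPKM in EV RNAi.

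Of 12 tested groundhog genes, which encode secreted proteins with a ground domain, 0 passed by limma (3 lower and 0 higher at an unadjusted p under 0.05, against 4.93% lower and 21.6% higher over all tested features). With the block 2 of the 12 passed (16.7%), both lower, against 4.47% lower and 16.5% higher over all tested features. The most abundant, grd-5, stood at 289, 239 and 308 RPKM in the libraries from rab-11.1 RNAi, against 394, 327 and 351 RPKM in EV RNAi. These groups did not overlap (log2 fold change -0.36, SE 0.12, adjusted p = 0.114, and 0.0347 with the block). For grd-14 the rab-11.1 RNAi libraries held 73.1, 81.5 and 121 RPKM and the EV RNAi libraries 171, 113 and 154 RPKM. Here the replicate 3 library labelled rab-11.1 RNAi lay above EV RNAi replicate 2, and the log2 fold change was -0.67 (SE 0.22, adjusted p = 0.116; 0.047 with the block, and 0.056 without the library labelled replicate 3). The gene grd-6 had 17.5, 25.4 and 34.7 RPKM in rab-11.1 RNAi, against 64.4, 31.2 and 57.4 RPKM in EV RNAi (log2 fold change -0.94, SE 0.33, adjusted p = 0.126, and 0.0666 with the block). It passed in the fit without EV RNAi replicate 2 (adjusted p = 0.045). The adjusted p of grd-5 was 0.11 without the replicate 3 library labelled rab-11.1 RNAi. Both block calls ended when no replicate 3 library was used (adjusted p = 0.0885 for grd-5 and 0.0858 for grd-14).

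The ground-like genes, 16 of which were tested, held the largest decrease of the families. The gene grl-27 (WBGene00001736, WBcel235 chromosome V, 3575055 to 3575859, minus strand, protein coding) had 3.25, 1.94 and 4.24 RPKM in the rab-11.1 RNAi libraries (33, 20 and 47 reads), against 34.5, 7.77 and 25.5 RPKM in the EV RNAi libraries (460, 103 and 307 reads). The groups did not overlap, and EV RNAi replicate 2 was far below the other EV RNAi libraries. The EV RNAi mean was 7.19 times the rab-11.1 RNAi mean, and the log2 fold change was -2.33 (SE 0.51, adjusted p = 0.039). The call ended without any single library other than EV RNAi replicate 2 (adjusted p = 0.0709 without the replicate 3 library labelled rab-11.1 RNAi, and up to 0.155 without EV RNAi replicate 3). It ended with limma-voom on recovered reads (adjusted p = 0.112), and held with the block (adjusted p = 0.00557).

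Transcripts of adult cuticle and yolk moved in the same libraries as grl-27. Summed over 10 adult stage markers (4 adult collagen and 6 vitellogenin genes), the rab-11.1 RNAi libraries held 198, 177 and 330.4 RPKM and the EV RNAi libraries 1586, 321 and 1442 RPKM. The level in EV RNAi replicate 2 was thus below that of 1 rab-11.1 RNAi library. Of these 10 markers, 6 were lower (col-7, col-62, col-179, vit-3, vit-4 and vit-5) and 0 higher after rab-11.1 RNAi, against 1.07% and 7.93% of all tested features. Without the replicate 3 library labelled rab-11.1 RNAi 3 of them were still lower, against 0.629% of all tested features. The list was chosen with earlier results of these data known. None of the 10 was at 0 in all libraries. The part of developmental stage in the level of grl-27 was not tested.

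The most abundant ground-like gene, grl-16, had 412, 287 and 465 RPKM in rab-11.1 RNAi, against 786, 510.1 and 658 RPKM in EV RNAi. All rab-11.1 RNAi libraries were below all EV RNAi libraries, and the log2 fold change of -0.75 (SE 0.22) had an adjusted p of 0.0838, of 0.00795 with the block and of 0.0819 without the replicate 3 library labelled rab-11.1 RNAi. In contrast, grl-21 stood at 31.8, 86.6 and 40.5 RPKM in the libraries from rab-11.1 RNAi and at 23.5, 33.8 and 19.4 RPKM in EV RNAi. It overlapped between the groups through rab-11.1 RNAi replicate 1 and passed with the block alone (log2 fold change 0.93, SE 0.37, adjusted p = 0.174, and 0.0197 with the block). The pattern of grl-4 was alike, at 91.9, 215 and 140.0 RPKM in the libraries from rab-11.1 RNAi, against 77.8, 102 and 77.9 RPKM in EV RNAi (adjusted p = 0.177, and 0.0326 with the block). Without the replicate 3 library labelled rab-11.1 RNAi the adjusted p was 0.211 for grl-21 and 0.277 for grl-4. With the block but no replicate 3 library the calls of grl-21 (adjusted p = 0.1) and grl-4 (0.148) ended, and that of grl-16 held (0.0249). The protein GRL-21 has been linked in worms to fat storage, together with the patched-related protein PTR-24.

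The abundant grl-7, grl-5 and grl-15 differed little. They averaged 227 ± 42.4, 188 ± 35.5 and 169 ± 31.7 RPKM in rab-11.1 RNAi, against 245 ± 20.0, 212 ± 19.7 and 147 ± 8.15 RPKM in EV RNAi (SD, n = 3 each). Their log2 fold changes of -0.13, -0.19 and 0.19 did not pass (adjusted p = 0.623, 0.468 and 0.418 by limma). The 95% intervals ran from -0.46 to 0.21 for grl-7, from -0.54 to 0.16 for grl-5 and from -0.13 to 0.51 for grl-15. The protein PTR-18 has been linked in worms to the clearance of secreted GRL-7, and ptr-18 averaged 51.4 ± 7.93 RPKM in rab-11.1 RNAi and 59.0 ± 2.43 RPKM in EV RNAi (adjusted p = 0.317).

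Of the patched genes, ptc-1, which is needed for cell division in the germline, had 43.8, 50.1 and 41.4 RPKM in rab-11.1 RNAi, against 35.0, 30.7 and 37.1 RPKM in EV RNAi. The groups did not overlap, but the log2 fold change of 0.39 (SE 0.11) missed the threshold, with an adjusted p of 0.0703, of 0.0635 with the block and of 0.0846 without the replicate 3 library labelled rab-11.1 RNAi. The essential gene ptc-3 was at 99.0, 89.6 and 81.8 RPKM in the libraries from rab-11.1 RNAi and at 86.8, 92.3 and 78.3 RPKM in EV RNAi. Its groups overlapped, and its log2 fold change of 0.07 had a 95% interval of -0.17 to 0.31 (adjusted p = 0.703). The name ptc-2 had a single read, in the replicate 3 library labelled rab-11.1 RNAi.

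Of 22 tested patched-related genes, 1 rose and 21 did not pass by limma (4.55% called, against 9% of all tested features). With the block 5 were higher and 1 lower (27.3%), against 21% of all tested features (16.5% higher and 4.47% lower). The gene that rose was ptr-1 (WBGene00004216, WBcel235 chromosome V, 9177949 to 9181719, minus strand, protein coding). It had 31.2, 33.7 and 30.2 RPKM in rab-11.1 RNAi (2086, 2291 and 2203 reads), against 24.4, 20.4 and 20.8 RPKM in EV RNAi (2147, 1783 and 1649 reads). The 3 libraries of each group were close to each other and did not overlap with the other group. Its mean was 1.45-fold higher (log2 fold change 0.52, SE 0.10, adjusted p = 0.0238, and 0.0162 with the block). The call ended without the replicate 3 library labelled rab-11.1 RNAi (adjusted p = 0.0521), without rab-11.1 RNAi replicate 1 or 2 (0.0779 and 0.0582) and without EV RNAi replicate 3 (0.111). It also ended with median-of-ratios scaling (0.0583) and with quantile normalization (0.0596).

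The end of ptr-1 overlaps that of spas-1 on the opposite strand (chromosome V, 9175789 to 9177997). The gene spas-1 was higher as well, at 17.1 ± 0.735 RPKM in rab-11.1 RNAi and 12.4 ± 0.598 RPKM in EV RNAi (SD, n = 3 each; log2 fold change 0.44, SE 0.09, adjusted p = 0.0276 by limma, and 0.0564 without the replicate 3 library labelled rab-11.1 RNAi). The shared stretch runs from 9177949 to 9177997, and the length fitted to the RPKM of ptr-1 was 2910 bases. The use of strand in counting is not given in the sources used here, so reads of the shared stretch cannot be assigned to either gene. The part of those reads in the level of ptr-1 was not tested. The exons of ptr-8, ptr-10 and ptr-15 also overlap genes on the opposite strand, as do those of wrt-2, grl-15, grl-31 and other family genes.

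The largest fold changes among the patched-related genes, those of ptr-8 and ptr-22, came with a wide spread between libraries. For ptr-8 the rab-11.1 RNAi libraries held 12.4, 34.8 and 15.7 RPKM and the EV RNAi libraries 5.86, 10.4 and 7.94 RPKM. For ptr-22 they held 2.19, 7.12 and 2.58 RPKM, against 1.04, 1.81 and 0.626 RPKM in EV RNAi. Neither gene overlapped between the groups, and replicate 2 was the highest library of both groups for both genes. The log2 fold change was 1.17 for ptr-8 (SE 0.37, adjusted p = 0.105, and 0.00883 with the block) and 1.10 for ptr-22 (SE 0.39, adjusted p = 0.13, and 0.0182 with the block). The call of ptr-8 with the block held when both replicate 3 libraries were left out (adjusted p = 0.0339), and that of ptr-22 did not (0.0864).

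Among the more abundant receptor-like genes, ptr-4, which is needed for the matrix that precedes the cuticle, had 111, 114 and 86.2 RPKM in rab-11.1 RNAi, against 72.5, 86.0 and 70.3 RPKM in EV RNAi. The replicate 3 library labelled rab-11.1 RNAi was only just above EV RNAi replicate 2, and the log2 fold change was 0.43 (SE 0.13, adjusted p = 0.0955, and 0.0217 with the block). A similar size was seen for ptr-15, at 7.12 ± 1.27 RPKM in rab-11.1 RNAi and 4.82 ± 0.558 RPKM in EV RNAi (log2 fold change 0.47, adjusted p = 0.125, and 0.0393 with the block; SD, n = 3 each). In the other direction, ptr-24 averaged 26.9 ± 4.59 RPKM in rab-11.1 RNAi and 36.7 ± 6.25 RPKM in EV RNAi (log2 fold change -0.43, adjusted p = 0.152, and 0.0217 with the block). Without the replicate 3 library labelled rab-11.1 RNAi the adjusted p was 0.0505 for ptr-4, 0.0845 for ptr-15, 0.108 for ptr-24, 0.141 for ptr-8 and 0.153 for ptr-22. Fitted with the block and no replicate 3 library, the calls of ptr-1 (adjusted p = 0.0868), ptr-4 (0.0739), ptr-15 (0.0909) and ptr-24 (0.0823) ended. The remaining patched-related genes had log2 fold changes between -0.48 (ptr-19) and 0.47 (ptr-10), and neither fit called them. The gene ptr-10, whose promoter is widely used to mark glia, averaged 13.6 ± 3.37 RPKM in rab-11.1 RNAi and 9.43 ± 1.79 RPKM in EV RNAi (adjusted p = 0.202).

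**Figure D4:**
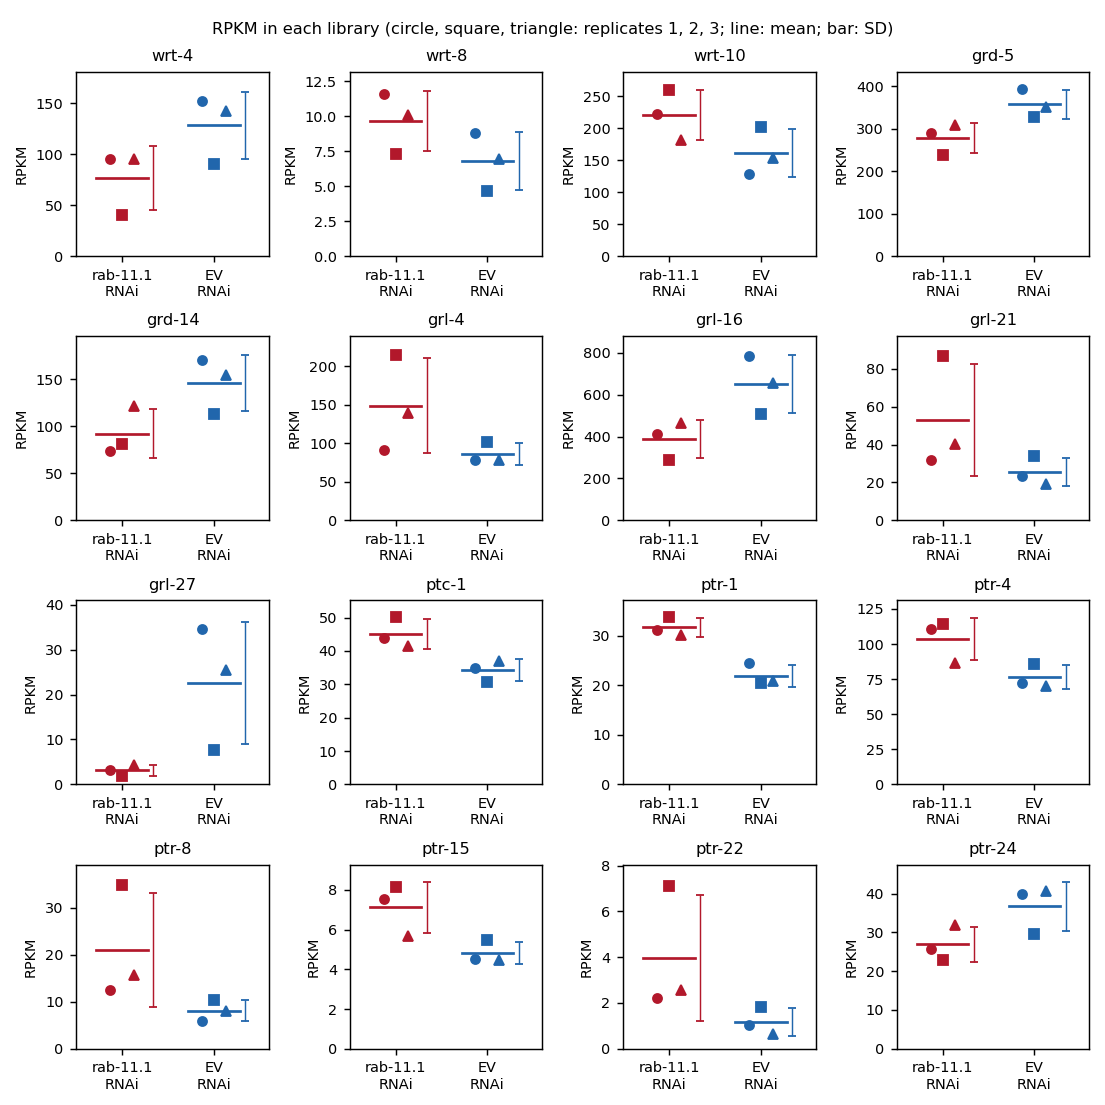
RPKM in each library for the 15 genes past the threshold with the replicate block and for ptc-1, with rab-11.1 RNAi (red) left of EV RNAi (blue); symbols mark replicates 1 to 3, lines the mean and bars the SD of 3 libraries. In wrt-4, wrt-8, grl-21 and ptr-22 the libraries of replicate 2 lie to the same side in both groups, and the groups of ptr-1 lie apart with little spread.

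The median coefficient of variation within the rab-11.1 RNAi group was 20.1% over the 61 genes, against 13.2% over all tested features. By stem it was highest in grl in rab-11.1 RNAi, at 27.3%, and highest in grd in EV RNAi, at 20.4%. In EV RNAi grl had 15.8%, and ptr had 15.2% in rab-11.1 RNAi and 12.2% in EV RNAi. In 57.4% of the 61 genes replicate 2 deviated from the mean of replicates 1 and 3 in the same direction in both groups. Over all tested features this share was larger, at 69.2%. In 16 of the 61 genes replicate 2 was the highest library of both groups, in 10 it was the lowest of both, and in 14 it was the highest of 1 group and the lowest of the other. Of all 13833 tested features, 3300 were highest in replicate 2 of both groups and 3784 lowest in both. A further 2285 were highest there in 1 group and lowest in the other. Across the 61 genes the deviations of replicate 2 in rab-11.1 RNAi and in EV RNAi correlated at 0.54, against 0.62 across all tested features; these are correlations across genes of the same 6 libraries, given as a description. Replicate 2 was also the lowest library of both groups in 8 of the 10 adult stage markers and in all 7 germline and all 6 tested sperm markers. The part of stage in the spread of the families was not tested.

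**Figure D5:**
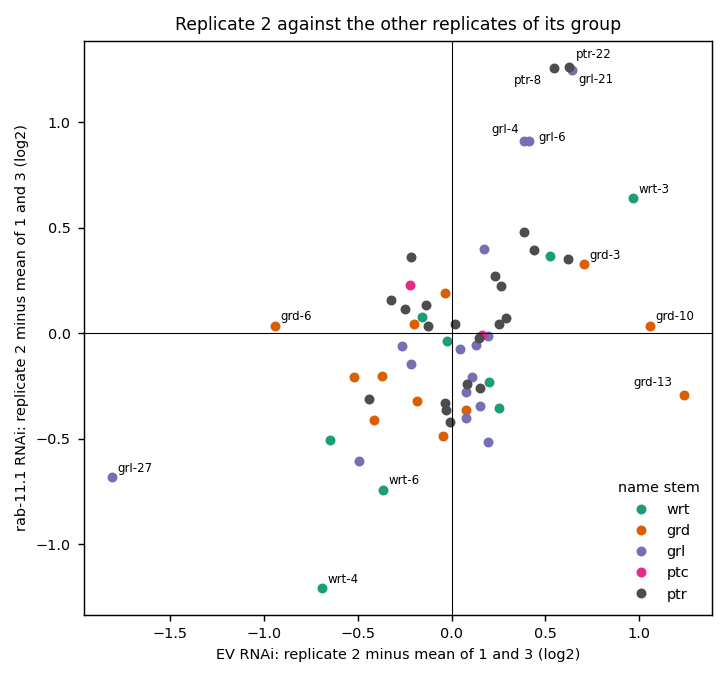
Replicate 2 minus the mean of replicates 1 and 3 on the log2(RPKM + 1) scale, in rab-11.1 RNAi (vertical axis) and in EV RNAi (horizontal axis), for the 61 tested genes coloured by name stem. Genes such as ptr-8, ptr-22 and grl-21 were high in replicate 2 of both groups and wrt-4 and grl-27 low in both, whereas grd-13 and grd-10 were high in EV RNAi replicate 2 alone.

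Neighbouring genes in some cases varied together across the EV RNAi libraries, and in others did not. The names of 82 of the 85 genes matched the annotation of WBcel235, all as protein coding, with 32 on chromosome V, 13 on IV, 12 on X, 10 on II, 9 on I and 6 on III. On chromosome IV, grd-13 (3438312 to 3439507), grd-3 (3439655 to 3440453) and grd-10 (3441055 to 3441841) lie in a row on the plus strand, with gaps of 147 and 601 bases. They stood at 21.9, 69.6 and 38.2 RPKM (grd-13), 28.3, 57.5 and 42.9 RPKM (grd-3) and 25.03, 64.7 and 37.3 RPKM (grd-10) in the EV RNAi libraries, so that replicate 2 was the highest and replicate 1 the lowest for all 3 genes. In rab-11.1 RNAi the genes grd-13, grd-3 and grd-10 averaged 35.0 ± 4.17, 38.7 ± 6.11 and 40.8 ± 6.67 RPKM, against 43.2 ± 24.3, 42.9 ± 14.6 and 42.3 ± 20.3 RPKM in EV RNAi (SD, n = 3 each). These did not pass by limma (adjusted p = 0.83, 0.834 and 0.95), nor with the block. When the block was fitted with no replicate 2 library, grd-10 was higher (adjusted p = 0.0173). In that fit grd-13 and grd-3 did not pass (adjusted p = 0.289 and 0.88), and 15% of all tested features passed as higher. It was chosen after the data were seen and leaves out the EV RNAi library in which these genes were highest. The promoter of grd-10 is known as a seam cell marker.

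A second row, on chromosome V, holds grl-28, grl-29, grl-30, grl-31 and, after a gap of 17276 bases, grl-27. The gene grl-28 had 0 reads in all rab-11.1 RNAi libraries, against 5, 0 and 4 reads in EV RNAi, and grl-31 had 0, 0 and 6 reads in rab-11.1 RNAi, against 8, 0 and 2 reads in EV RNAi. With grl-30 above, all 3 had fewer reads in EV RNAi replicate 2 than in EV RNAi replicate 1, as grl-27 did. At such read numbers a difference between the groups could not be tested. Reads that fit close paralogues of this row cannot be assigned with certainty. Elsewhere neighbours differed widely in level: grd-14 averaged 92.0 RPKM in rab-11.1 RNAi and 146 RPKM in EV RNAi, whereas grd-4, which starts 184 bases after its end, had at most 6 reads in any library. The tail-to-tail neighbours wrt-1 and wrt-10 on chromosome II, 15 bases apart, were both abundant, and wrt-1 averaged 103.7 ± 22.3 RPKM in rab-11.1 RNAi and 85.9 ± 7.45 RPKM in EV RNAi (adjusted p = 0.344).

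Other genes of hedgehog-type processing and sterol sensing, listed from general knowledge, were read beside the families. Of 9 such genes 8 were tested, and limma called 0 of them (2 higher and 1 lower at an unadjusted p under 0.05, against 21.6% and 4.93% of all tested features). Limma-voom on recovered reads called daf-6, and the block gave 2 higher (che-14 and daf-6) and 1 lower (tra-1). These are 37.5% of the 8, against 21% of all tested features with the block. The gene daf-6, a patched-related gene that shapes the glial channel of sense organs, had 11.9, 13.7 and 11.5 RPKM in rab-11.1 RNAi, against 9.09, 8.74 and 7.13 RPKM in EV RNAi. Its groups did not overlap (log2 fold change 0.52, SE 0.13, adjusted p = 0.0533, 0.046 with limma-voom and 0.0197 with the block). The dispatched-like gene che-14, which acts in secretion from the apical surface of epidermal cells, averaged 11.7 ± 1.39 RPKM in rab-11.1 RNAi and 9.17 ± 0.949 RPKM in EV RNAi (adjusted p = 0.17, and 0.046 with the block). Without the replicate 3 library labelled rab-11.1 RNAi the adjusted p was 0.0872 for daf-6, 0.138 for che-14 and 0.147 for tra-1. When no replicate 3 library entered the block fit, the calls of daf-6 (adjusted p = 0.104), che-14 (0.156) and tra-1 (0.101) ended.

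The Gli-type factor gene tra-1, known for its role in sex determination, averaged 14.9 ± 1.33 RPKM in rab-11.1 RNAi and 18.97 ± 1.94 RPKM in EV RNAi (log2 fold change -0.33, SE 0.11, adjusted p = 0.114, and 0.0353 with the block; SD, n = 3 each). The hedgehog-related gene qua-1, which is needed for moulting, averaged 156 ± 33.6 RPKM in rab-11.1 RNAi and 139 ± 7.92 RPKM in EV RNAi, and hog-1, which encodes a Hog domain, 23.8 ± 2.04 and 23.7 ± 1.66 RPKM in rab-11.1 RNAi and EV RNAi. The sterol transport genes ncr-1 and ncr-2 averaged 9.82 and 2.33 RPKM in rab-11.1 RNAi, against 8.42 and 3.04 RPKM in EV RNAi, and scp-1, which encodes a relative of the sterol sensor SCAP, 13.99 RPKM in rab-11.1 RNAi and 13.4 RPKM in EV RNAi. None of these 5 passed in either fit. The dispatched-like ptd-2 was below the filter, at 0.83 RPKM in rab-11.1 RNAi and 0.57 RPKM in EV RNAi.

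Of 32 tested epidermis, seam cell, glia and moulting genes 3 passed (9.38%), close to the 9% of all tested features. Of 10 epidermis markers 1 was higher (the GATA factor gene elt-3) and 0 lower, and their summed level was 3525 to 4485 RPKM in rab-11.1 RNAi and 3950 to 4602 RPKM in EV RNAi. Of 13 moulting genes 0 passed by limma (3 higher and 1 lower at an unadjusted p under 0.05, against 21.6% and 4.93% of all tested features), with sums of 1316 to 1605 RPKM in rab-11.1 RNAi and 1246 to 1462 RPKM in EV RNAi. Of 4 tested seam cell markers 1 was higher (nhr-73), with sums of 33.3 to 39.8 RPKM in rab-11.1 RNAi and 23.9 to 32.8 RPKM in EV RNAi, and of 5 tested glia markers 1 was higher (delm-2), with sums of 51.2 to 60.5 RPKM in rab-11.1 RNAi and 38.8 to 46.6 RPKM in EV RNAi. None of these markers was at 0 in all libraries. Among 6 intestine, 7 germline, 6 tested sperm and 5 body wall muscle markers limma called 0. Of these 24, 1 was higher and 4 lower at an unadjusted p under 0.05, against 21.6% and 4.93% of all tested features. With the block 1 of the 24 was higher and 8 lower, against 16.5% and 4.47% of all tested features. Of 6 neuron markers limma called 1 as higher (snb-1). Summed levels were 3749 to 4761 RPKM for intestine, 267 to 444 RPKM for germline, 95.3 to 226 RPKM for sperm, 2342 to 2666 RPKM for muscle and 305 to 447 RPKM for neuron markers in rab-11.1 RNAi, against 4431 to 5282, 346 to 576, 122 to 291, 2931 to 3015 and 227 to 252 RPKM in EV RNAi. The groups did not overlap in the sums of the seam cell, glia, muscle and neuron markers. By single gene this held for 2 of 4 tested seam cell and 2 of 6 neuron markers. It held for 4 of 5 tested glia and 5 of 5 muscle markers. The called snb-1 averaged 223 ± 61.6 RPKM in rab-11.1 RNAi and 124 ± 4.67 RPKM in EV RNAi (SD, n = 3 each). The called nhr-73 averaged 7.99 ± 2.45 and 2.72 ± 1.33 RPKM in these groups. Sums without snb-1 or nhr-73 were not taken, so the neuron and seam cell sums do not show a shift of the whole list. Without the replicate 3 library labelled rab-11.1 RNAi, the calls of elt-3, nhr-73 and snb-1 were lost and 1 glia marker was higher. The part of these markers in the levels of the families was not tested.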

How the data were processed

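RPKM values of 46739 features in 6 libraries were deposited by the authors, computed from paired reads per the file headers. WBcel235 is the genome build named in the submitters' processing notes. The sources used here name no aligner, counter, annotation release or strand setting. Deposited group means equalled those of the single libraries within 9.09e-13. Each library's depth was taken as the whole number at which the largest number of features gave whole reads; 19489 of 19491 features above 0 were then whole in every library within 0.0001 reads, 2397 of them with the exon length of the annotation and 17092 with a length fitted to the RPKM. With wrong depths, 0 of 300 features were. A read may stand for a read pair.

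The test was run on log2(RPKM + 1), for features that reached 1 RPKM in 3 or more libraries, with limma 3.58.1 (R 4.3.3), with a trend and robust settings, group alone as a term, two-sided, with Benjamini-Hochberg adjustment over all 13833 features, so every adjusted p is limma's. Log2 fold changes are on this scale, which understates changes of low genes, and fold values are ratios of mean RPKM. No exact permutation test was run, since with 3 against 3 libraries its smallest p is 0.1. The fit was tested on simulated data with log2 fold changes of 1 and 2 in size and no deviations shared by same-numbered libraries. Smaller changes and such shared deviations were thus not covered by it. Limma-voom on recovered reads was an alternative. Same-numbered libraries had correlated deviations from their group means across genes (0.40, 0.62 and 0.35), each over 0.1, and by that rule the numbers pair the samples; the crossed pairing of replicates 1 and 3 met the same rule (0.46 and 0.18). Fits that left out 1 library kept the same features. Names were matched to Ensembl release 115 of WBcel235. The gene families and the 11 gene lists came from general knowledge and were chosen with earlier results of these data known; the seam cell marker elt-5 had no matching name. Named genes are those past the threshold, the 2 most abundant of each large stem, ptc-1, ptc-3, the related pathway genes, family genes with a log2 fold change of 1 or more in size, and genes below the filter that reach 1 RPKM in a library; the others named were chosen after their values were seen, most because they passed with the block or did not overlap between groups. Sequences are not shown.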

Additional observations from a re-analysis of the deposited data

How the results depend on the processing

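In all, 17 alternatives were run, 1 of them (the block but no replicate 2 library) chosen after the data were seen. Over all features, calls numbered 553 higher and 284 lower with median-of-ratios scaling, 524 and 249 with quantile normalization, 2288 and 618 with the replicate block, and 2072 and 608 with the block but no replicate 2 library. Lower calls numbered 97 with no filter and 88 without the trend. Leaving out 1 library gave 265 to 943 higher and 24 to 133 lower. Of the family genes, calls numbered 9 higher and 6 lower with the block, 7 and 5 with the block but no replicate 2 library, and 1 and 3 with the block but no replicate 3 library (wrt-4, grl-16, grl-27 and ptr-8; 7.03% of all features passed there). The higher call (ptr-1) was lost with both scalings, giving 0. The lower call (grl-27) was lost with a pseudocount of 5, with no filter, without the trend and with limma-voom, giving 0 each. Leaving out 1 library gave 0 to 1 higher and 0 to 2 lower; both were 0 whenever the library left out was of rab-11.1 RNAi or was EV RNAi replicate 3, and without EV RNAi replicate 1 the lower count was 0. The related genes had 2 higher and 1 lower with the block, 1 higher with limma-voom, 1 higher with the block but no replicate 2 library and 1 lower (tra-1) with quantile normalization. Leaving out 1 library gave 0 in both directions. The targeted rab-11.1 did not pass as deposited (log2 fold change -0.78, adjusted p = 0.415), but passed without the replicate 3 library labelled rab-11.1 RNAi (-1.49) and with the block but no replicate 3 library (-1.48). Leaving out 1 library gave -1.49 to -0.39. Signs turned for genes near 0: ptc-3 to -0.0582 and -0.0422, hog-1 to -0.12 and -0.14 and scp-1 to -0.0635 and -0.10 with median-of-ratios and quantile scaling, hog-1 to -0.0046 with limma-voom and -0.0192 with the block but no replicate 3 library, and grl-7 to 0.0396 with the block but no replicate 2 library. Leaving out 1 library moved hog-1 over -0.0546 to 0.0645 and qua-1 over -0.0155 to 0.24. The cause of these changes was not tested. Over 22 named genes and these alternatives, 321 of 374 values kept direction and side of the threshold, 16 lost a call and 23 gained one. The block changed no call of a named gene other than those given. Depth limits the 24 genes below the filter, at 20 reads or fewer a library.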

Other observations

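The annotation also names a ptr-25, which the name rule did not take because the deposited table lists it as F43D9.1 (chromosome III, 10488124 to 10500239, plus strand). It had 9.30, 13.5 and 9.26 RPKM in the rab-11.1 RNAi libraries, against 6.88, 9.101 and 6.98 RPKM in the EV RNAi libraries. The groups did not overlap, and replicate 2 was the highest of both. Its log2 fold change was 0.42 (SE 0.18, adjusted p = 0.193 by limma, and 0.0291 with the replicate block). Without the replicate 3 library labelled rab-11.1 RNAi the adjusted p by limma was 0.2. The block call ended when no replicate 3 library was used (adjusted p = 0.107).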
